A study of Caenorhabditis elegans with 2 samples.

Results

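The genes described here are myrf-1, myrf-2 and pan-1 of Caenorhabditis elegans, 3 of the 19973 protein-coding genes on the nuclear chromosomes, with every recovered interval whose summit fell in the gene or within 5 kb of either end. They were chosen by the intervals seen in those windows, so the counts and signals below are descriptions and carry no test. The windows held 6 of the 1358 optimal IDR peaks: 4 at myrf-1, 1 at myrf-2 and 1 at pan-1. By the same rule 14.4% of the protein-coding genes had at least 1, and nothing is read from the 3 genes against that share. IDR, the irreproducible discovery rate, is a measure of how well the ranks of peaks repeat between replicates, and 1337 of the 1358 peaks here had an interval in each replicate list.

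The data are from chromatin immunoprecipitation and sequencing (ChIP-seq) of eGFP-tagged CEH-16, an engrailed-class homeodomain factor known for its role in the seam cells of the epidermis. Both samples were whole L2 larvae of mixed sex from strain OP82, genotype unc-119(tm4063) III; wgIs82, and are biological replicates 1 and 2 of 1 group. Both carry the same unc-119 allele and the same inserted transgene, whose promoter is not given in the sources used here, and whole larvae do not show which cells a signal came from. There was no second stage or factor, and what an untagged strain would give at these genes was not tested.

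MYRF proteins are transcription factors made as membrane proteins. They trimerise and cut themselves, which releases an N-terminal fragment that enters the nucleus. In worms myrf-1 and myrf-2 act in larval progression, in molting and in the rewiring of motor neuron synapses after the L1 stage, and mouse Myrf is known for its role in myelination. PAN-1, a transmembrane protein with extracellular leucine-rich repeats, binds MYRF and is needed for it to reach and persist at the cell surface.

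Windows at 4 of the 6 IDR summits are printed, since they carry the features described below. They are the strongest peak of each gene and the intronic myrf-1 peak with a homeodomain core in its window. Each line is the plus strand of ce11 from 100 bp before to 100 bp after the summit, read from the RefSeq copy of WBcel235. Capitals mark the matches of 3 motifs searched on both strands: the homeodomain core (TAATTA, or else TAATTG, which reads CAATTA on the opposite strand), the GATA hexamer AGATAA and the hexamer GAGAGA. No match overlapped another. None of the windows held a base annotated as UTR, and that of the myrf-1 intron holds 2 coding bases.
myrf-1 upstream, chrII:10502753-10502953: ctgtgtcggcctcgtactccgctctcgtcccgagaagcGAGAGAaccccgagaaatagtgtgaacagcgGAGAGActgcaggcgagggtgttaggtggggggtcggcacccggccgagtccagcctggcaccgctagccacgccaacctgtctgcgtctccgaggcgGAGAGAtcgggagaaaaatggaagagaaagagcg
myrf-1 intron, chrII:10500834-10501034: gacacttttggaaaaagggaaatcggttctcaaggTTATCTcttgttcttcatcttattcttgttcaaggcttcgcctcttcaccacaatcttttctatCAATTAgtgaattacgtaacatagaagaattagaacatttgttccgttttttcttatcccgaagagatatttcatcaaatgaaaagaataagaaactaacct
myrf-2 intron, chrX:10188540-10188740: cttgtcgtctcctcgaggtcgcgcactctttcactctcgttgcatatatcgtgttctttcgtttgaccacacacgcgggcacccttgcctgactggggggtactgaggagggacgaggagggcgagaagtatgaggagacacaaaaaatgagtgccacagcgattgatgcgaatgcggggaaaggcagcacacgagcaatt
pan-1 upstream, chrIII:4560618-4560818: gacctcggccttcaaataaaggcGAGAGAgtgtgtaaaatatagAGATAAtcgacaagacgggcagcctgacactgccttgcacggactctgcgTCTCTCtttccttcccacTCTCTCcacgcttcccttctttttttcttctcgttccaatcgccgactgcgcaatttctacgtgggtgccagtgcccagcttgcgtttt

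At myrf-1 the peaks lay on both sides of the 5′ end, and replicate 1 was higher at the upstream pair while replicate 2 was higher at the intronic pair. myrf-1 (WBGene00004134, II:10496987-10502541, minus strand) has 1 annotated transcript, with 8 introns. The strongest of its 4 IDR peaks, at II:10502705-10503000, had a signal of 45.5, rank 342 among the IDR peaks, with the summit 312 bp upstream of the annotated 5′ end. Signal is the enrichment value of each interval on the scale of the authors' peak caller. Replicate 1 gave 43.1 there and replicate 2 gave 13.5, so the value of replicate 1 was the higher.

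A second upstream peak of myrf-1, at II:10506017-10506312, had an IDR signal of 27.5, with the summit 3624 bp before the 5′ end. Its signal was 20.3 in replicate 1 and 5.81 in replicate 2. As at the first peak, replicate 1 was the higher.

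The remaining 2 peaks lay in introns of myrf-1. The peak at II:10501712-10502007, in intron 1 of 8 and 681 bp past the 5′ end, had an IDR signal of 32.0, with 12.1 in replicate 1 and 27.5 in replicate 2. The peak at II:10500786-10501081, in intron 2 and 1607 bp past the 5′ end, had an IDR signal of 29.1, with 3.99 in replicate 1 and 18.3 in replicate 2. At both intronic peaks replicate 2 was the higher, the reverse of the upstream pair. The strongest myrf-1 interval was therefore the upstream one in replicate 1 and the intron 1 one in replicate 2.

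Neighbouring annotations at myrf-1 limit what its upstream peaks can be assigned to. The summit 312 bp upstream lies inside F59B10.7, an ncRNA gene on the opposite strand (II:10502652-10503191), 201 bp past its 5′ end. The summit at 3624 bp lies 39 bp from the body of the ncRNA gene F59B10.9 and 1047 bp from the 3′ end of F59B10.2, the protein-coding gene next upstream of myrf-1. For all 4 peaks the nearest protein-coding 5′ end was that of myrf-1. At the farther upstream summit the margin was small: 3624 bp to that of myrf-1 and 3681 bp to that of F59B10.2. Past the 3′ end of myrf-1, where its window reaches ZK666.12, ZK666.14 and ZK666.8, there was no IDR summit.

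**Figure D1:**
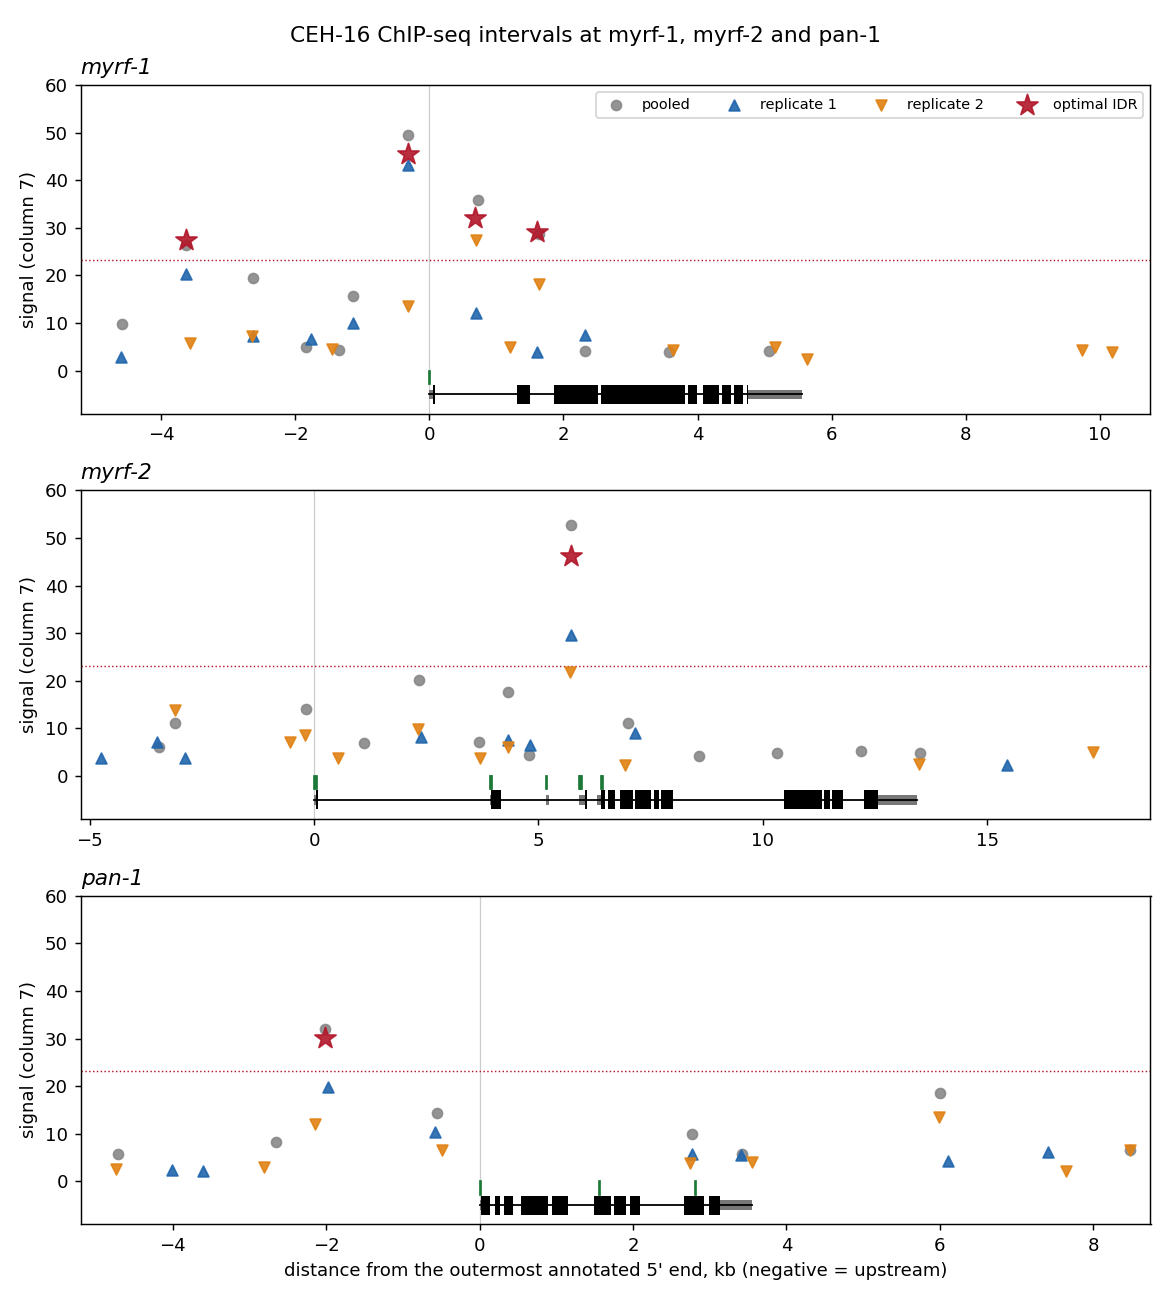
Signal (column 7 of each list, y axis) of every interval with its summit in the gene or within 5 kb, against distance in kb from the outermost annotated 5′ end (x axis; negative is upstream), for the optimal IDR, pooled and replicate lists. Black boxes are coding exons, grey boxes other exons, green ticks annotated 5′ ends, and the dotted line is the lowest IDR signal, 23.2. That line applies to the IDR stars only, since the same interval can have another signal in another list. The 4 myrf-1 stars lie on both sides of the 5′ end, while myrf-2 and pan-1 have 1 star each.

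At myrf-2 a single IDR peak stood in a long first intron beside internal 5′ ends. myrf-2 (WBGene00008999, X:10180940-10194377, minus strand) spans 13438 bp and has 11 annotated transcripts with 10 distinct 5′ ends. The peak at X:10188492-10188787 had an IDR signal of 46.2, the highest of the 6 and rank 329 of the list. Its signal was 29.7 in replicate 1 and 21.9 in replicate 2, so both replicates recovered it above the medians at IDR peaks, 19.2 in replicate 1 and 18.2 in replicate 2.

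The myrf-2 summit lies 5737 bp past the outermost 5′ end of the gene, in the first intron of all 5 transcripts that span it. It is 170 bp upstream of the 5′ end of transcript F21A10.2a.2, at X:10188470, and the 5′ ends of F21A10.2a.7 and F21A10.2b.1 follow at X:10188441 and X:10188430. At the outermost 5′ end of myrf-2, F21A10.2a.1, no IDR peak was found. A pooled interval with its summit 169 bp upstream of it had a signal of 14.1, was 8.67 in replicate 2 and overlapped no interval of replicate 1.

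At pan-1 the IDR peak lay 2 kb upstream of the gene and was weaker than the leading peaks of the other 2 genes. pan-1 (WBGene00003915, III:4562738-4566283, plus strand) has 3 annotated transcripts, each with its own 5′ end. The peak at III:4560570-4560865 had an IDR signal of 30.2, rank 849 and below the IDR median of 33.5. Its signal was 19.9 in replicate 1 and 12.0 in replicate 2. The replicate 2 value is below the median of 18.2 for IDR peaks in that replicate, and the replicate 1 value is close to its median.

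The pan-1 summit is 2020 bp upstream of the 5′ end of M88.6b.1 and 280 bp past the 3′ end of imph-1, the gene that precedes pan-1 on the same strand. Nearer to pan-1, the pooled list held an interval 551 bp upstream with a signal of 14.3, which was 10.4 in replicate 1 and 6.61 in replicate 2. It was recovered in both replicates but overlapped no IDR peak.

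**Figure D2:**
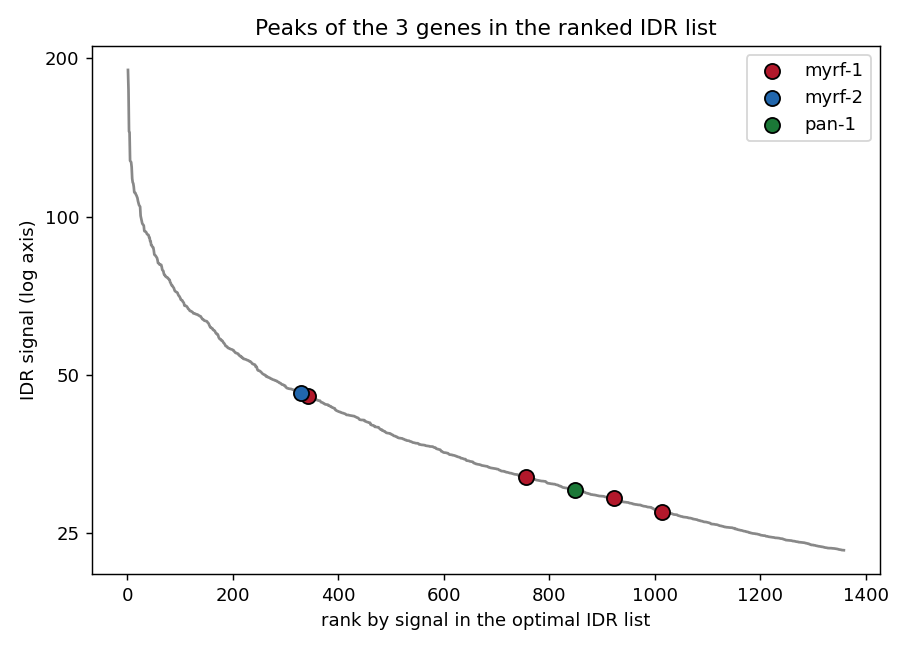
IDR signal (y axis, log scale) against rank in the optimal IDR list of 1358 peaks (x axis), with the 6 peaks of the 3 genes marked. The leading peaks of myrf-2 and myrf-1 sit at ranks 329 and 342, and the other 4 between 755 and 1014.

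Both replicates gave the 3 genes the same order by their strongest interval, but at myrf-1 and pan-1 these were different intervals. The IDR list put myrf-2 before myrf-1. By the strongest interval in the IDR list myrf-2 (46.2) stood above myrf-1 (45.5) and pan-1 (30.2). Replicate 1 gave 43.1 at myrf-1, 29.7 at myrf-2 and 19.9 at pan-1. Replicate 2 gave 27.5 at myrf-1, in intron 1, 21.9 at myrf-2 and 13.6 at pan-1, where its highest interval was not the IDR peak. At the leading IDR peak of each gene it gave 21.9 at myrf-2, 13.5 at myrf-1 and 12.0 at pan-1. There the replicates differed in the order of myrf-1 and myrf-2. myrf-1 and myrf-2 are therefore not separated: their IDR values were close, and the replicates gave opposite orders at their leading IDR peaks. pan-1 was lowest in all 3 of these lists.

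myrf-1 was 1 of 34 protein-coding genes (0.170%) with 4 or more IDR summits in the gene or within 5 kb, and 2.75% had 2 or more. These counts are part of how the genes were chosen. Longer genes have longer windows and neighbours share summits, so the 34 genes are not independent. Among the top 1358 intervals of a single replicate by signal, myrf-1 had 2 in replicate 1 (the upstream pair) and 3 in replicate 2 (both intronic ones and the nearer upstream one). The 4 myrf-1 summits span 5231 bp, and the 2 that flank its 5′ end are 993 bp apart.

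The 5 kb limit decided none of these counts closely. The summit farthest out but inside was the myrf-1 one at 3.62 kb from the gene, with signal 27.5. The nearest IDR summits outside were 46.5 kb from myrf-1 (signal 48.9), 22.0 kb from myrf-2 (24.2) and 67.2 kb from pan-1 (27.7). They were nearest to mnk-1, erd-2.1 and atf-7.

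Replicate signals at myrf-1 differed more than at most IDR peaks. The log2 ratio of replicate 1 over replicate 2 was 1.68 and 1.80 at its upstream peaks and -1.18 and -2.19 at the peaks in introns 1 and 2. Over the 1337 IDR peaks with an interval in both replicates the quartiles of this ratio were -0.51 and 0.68 and the median 0.09. The upstream pair of myrf-1 lay above 94.5% and 95.6% of these peaks. The intronic pair lay above only 9.50% and 1.42%. myrf-2, with a ratio of 0.44, lay inside the quartiles, and pan-1, with 0.74, just above the upper one.

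**Figure D3:**
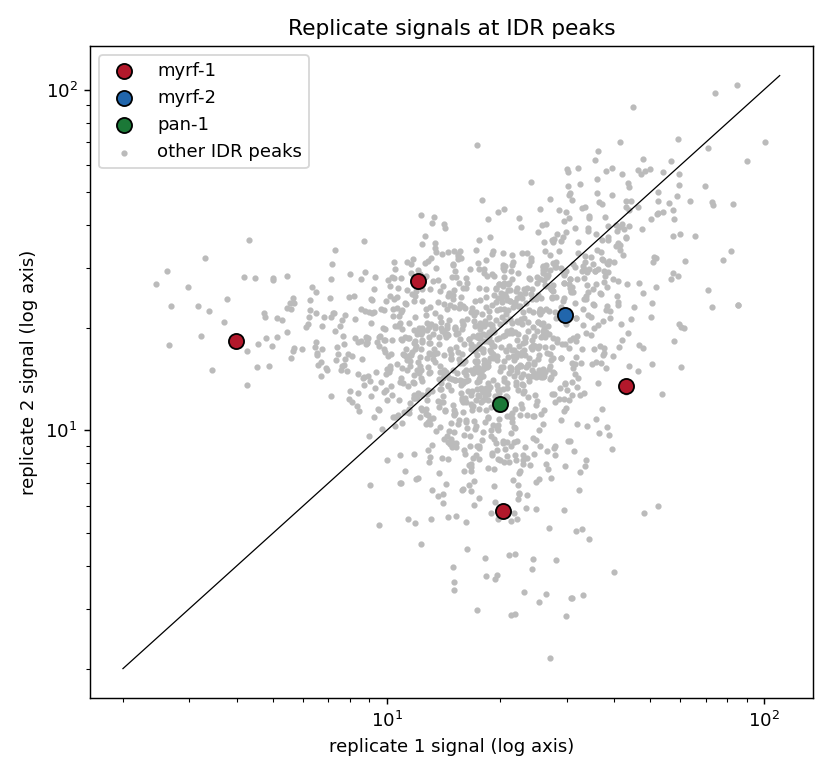
Signal in replicate 2 (y axis, log scale) against signal in replicate 1 (x axis, log scale) at the 1337 IDR peaks with a value in each, with the diagonal of equal signal. The 4 myrf-1 peaks fall on both sides of the diagonal, while the myrf-2 and pan-1 peaks lie just below it.

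Within myrf-1 the ratio thus ran from -2.19 to 1.80. Among the 543 protein-coding genes whose windows hold at least 2 IDR summits with a ratio, the median distance between the highest and lowest ratio was 1.02, and 8 genes (1.47%) had a span at least as wide as that of myrf-1. A span can widen with the number of summits, and myrf-1 had 4. Of all protein-coding genes, 549 had 2 or more summits, 124 had 3 or more and 34 had 4 or more. Most of the genes compared thus had fewer summits than myrf-1, and neighbouring genes can share them. The peaks on either side of the 5′ end of myrf-1 differed by 2.86. There are 62 pairs of adjacent IDR summits within 1000 bp of each other. Their median difference was 0.80, and 4 pairs differed by at least as much as the myrf-1 pair, itself included. Some close pairs overlap the same interval in each replicate. The matching rule then gives both peaks the same ratio, which can lower these medians.

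The distance between replicate summits was below the upper quartile of IDR peaks at 5 of the 6 peaks. The summits of replicates 1 and 2 were 9 and 54 bp apart at the upstream myrf-1 peaks and 1 and 32 bp apart at those in introns 1 and 2. The gap was 38 bp at myrf-2. At pan-1 it was 167 bp, with the summit of replicate 1 nearer to the gene. Over all IDR peaks the median gap was 32.0 bp and the upper quartile 66.0 bp, and the gap at pan-1 was the one beyond it.

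Base composition moved weakly with the replicate ratio. The window of the upstream myrf-1 peak at 312 bp was 62.7% G and C, more than in 99.3% of IDR windows, and that of the intron 2 peak was 33.3%, more than in 3.31%. The other myrf-1 windows were at 49.3% upstream and 46.8% in intron 1, myrf-2 at 54.7% and pan-1 at 51.2%, against a median of 44.8% over IDR windows. Across the 1337 IDR peaks Spearman's rho between GC content and the ratio was 0.26. It is a description over peaks that share both libraries. The median log2 ratio was -0.13 in the 267 peaks lowest in GC and 0.54 in the 268 highest. In the groups between, from low to high GC, it was 0.01, -0.02 and 0.11, so the shift lay mostly in the highest group. The part of GC content in the myrf-1 values was not tested. In every one of the 6 windows all 31-mers occur once in the genome, so none is an exact copy of another locus.

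**Figure D4:**
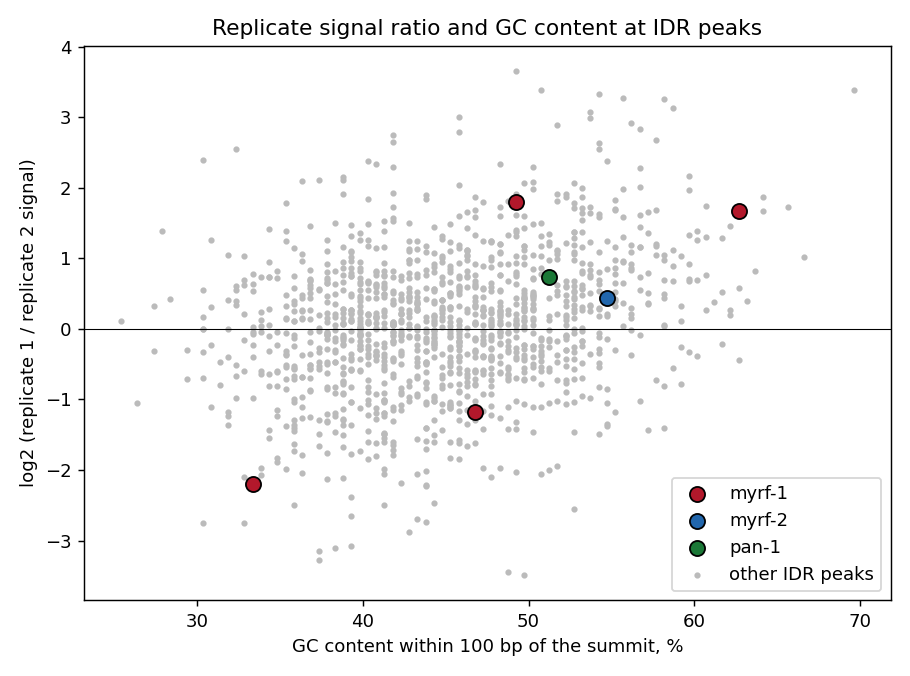
Log2 ratio of replicate 1 over replicate 2 signal (y axis) against GC content within 100 bp of the summit in percent (x axis) for 1337 IDR peaks. The 2 myrf-1 peaks above 0 are the upstream ones and the 2 below 0 the intronic ones. The lowest in GC is in intron 2.

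Of the 6 windows, 1 held a homeodomain core. It was CAATTA at II:10500933-10500938, which starts 1 bp before the IDR summit of the myrf-1 intron 2 peak, the peak that was weakest in replicate 1. The pooled list and replicate 2 place the summit of this peak at II:10500908, and replicate 1 at II:10500940. The same window held AGATAA on the minus strand, starting 65 bp before the IDR summit. Over all IDR windows 15.4% held a core (95% Wilson interval 13.6 to 17.4%), against 21.2% of windows at pooled intervals outside the IDR list.

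GAGAGA was in 3 of the 6 windows. It occurred 3 times at the upstream myrf-1 peak nearest the gene, once at the one farther away, and 3 times at pan-1. At pan-1 a match starts 6 bp before the IDR summit, while the replicate summits were 167 bp apart. The pan-1 window also held AGATAA on the plus strand. The windows of myrf-2 and of myrf-1 intron 1 held none of these letters, which says nothing about what binds there. Over all IDR windows 40.8% held GAGAGA and 19.4% AGATAA, against 16.7% and 11.7% of windows at the other pooled intervals. No 2 of the 6 windows shared a run of more than 12 bases.

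Below the IDR level the 3 loci carried weaker intervals. They come from the relaxed pooled list, which holds 30000 intervals over a genome of 100.3 Mb. The windows span 15.6 kb at myrf-1, 23.4 kb at myrf-2 and 13.5 kb at pan-1, and nothing is read from the counts. The lowest signal, 3.88 at myrf-1, had a deposited −log10 q of 0.175. The pooled list held 12 intervals at myrf-1, 14 at myrf-2 and 8 at pan-1, of which 8, 13 and 7 overlapped no IDR peak. Of all the pooled intervals, 6, 5 and 5 overlapped an interval in both replicates. Those counts include the 4, 1 and 1 pooled intervals at IDR peaks, so the counts for the weaker intervals alone are lower. The same replicate interval can match neighbouring pooled intervals, as that of 9.95 in replicate 1 did upstream of myrf-1. Signals differ between the lists: the interval X:10188492-10188787 was 46.2 in the IDR list and 52.8 in the pooled list. At the 6 IDR peaks the pooled signal was 26.4 or more. The strongest pooled intervals outside the IDR list were lower: 20.1 in the first intron of myrf-2, 19.4 at 2631 bp upstream of myrf-1 and 18.6 at the pan-1 window's far side. The myrf-2 interval, 2333 bp past the outermost 5′ end, was 8.12 in replicate 1 and 9.81 in replicate 2. The myrf-1 one was 7.32 in replicate 1 and 7.37 in replicate 2. Other weaker intervals differed more: that of 15.7, 1143 bp upstream of myrf-1, was 9.95 in replicate 1 and overlapped none in replicate 2.

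Some of the weaker intervals lie nearer to the 5′ ends of neighbouring genes. The pooled interval of 18.6 in the pan-1 window has its summit 55 bp upstream of idhg-1, a gene for an isocitrate dehydrogenase subunit, and was 4.24 in replicate 1 and 13.6 in replicate 2. The interval of 11.1 in the myrf-2 window, 233 bp upstream of nucb-1, was 3.79 in replicate 1 and 13.8 in replicate 2. The gene arrd-28 lies inside myrf-2 on the opposite strand, and the pooled intervals in its body had signals of 4.88 and 4.14, with no interval in either replicate. mlcd-1, downstream of pan-1, had no IDR summit, and neither did ncs-4 beside myrf-2.

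Coding exons of the 3 genes held no IDR summit. The pooled intervals there were weak: 3.88 and 4.08 in exons of myrf-1, 11.2 in an exon of myrf-2 and 9.85 in an exon of pan-1. The pan-1 one lies 36 bp upstream of the 5′ end of the short transcript M88.6c.1.

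Other regulators of the molting cycle and of larval timing also had IDR summits. Of 7 molting-cycle regulators 5 had at least 1 in the gene or within 5 kb, against the 14.4% of all protein-coding genes. This list and those below were drawn up with results of these data known and are no independent support. nhr-25, a nuclear receptor gene, had 4 summits, as many as myrf-1, the strongest with signal 56.7 (29.9 in replicate 1 and 29.4 in replicate 2). nhr-23, a nuclear receptor gene needed for molting, had 3, with 49.6 at the strongest. The zinc finger gene blmp-1 and the period homolog lin-42 had 2 each, the strongest at 41.0 and 41.9, and nhr-85 had 1 of 49.6. grh-1, of the grainyhead family, and bed-3, a zinc finger gene, had none, and their strongest pooled intervals were 13.9 and 8.32.

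The microRNA lin-4, whose transcription MYRF promotes in worms, and its targets lin-14 and lin-28 each had at least 1 IDR summit in their windows. These are 3 of 3 genes, against 14.4% of all protein-coding genes, a set that does not include the microRNA gene lin-4. The lin-4 peak, 325 bp upstream of the annotated hairpin, had a signal of 24.8, with 23.8 in replicate 1 and no overlapping interval in replicate 2. lin-14 had 2 IDR summits. The stronger, 195 bp upstream with signal 49.6, was 27.3 in replicate 1 and 26.0 in replicate 2, and the other, 3384 bp upstream with signal 25.3, was 9.08 in replicate 1 and 12.6 in replicate 2. The lin-28 peak was 10.7 in replicate 1 and 22.9 in replicate 2.

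Among genes for other proteins with extracellular leucine-rich repeats, 2 of 4 had an IDR summit, against 14.4% of all protein-coding genes. let-4, needed for epithelial matrix integrity, had 2, the stronger of signal 110.2 (49.7 in replicate 1 and 58.6 in replicate 2), 1811 bp upstream. sym-1, its neighbour on X, had 1 of 37.2, 43 bp upstream, which is also within 5 kb of let-4. egg-6 had none. dma-1, which encodes a leucine-rich repeat receptor of sensory dendrites, had none either, with a strongest pooled interval of 11.3.

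By IDR, replicate 1 and replicate 2 signal together, the peaks nearest to each gene's strongest were compared over 741 promoter peaks of 693 genes, as distance in log2 units over these 3 values from 2 samples. Nearest to myrf-1 were din-1 (distance 0.193), which encodes a corepressor that binds DAF-12, and F56G4.6 (0.270). tre-1, a trehalase gene (0.0487), and mdt-26, a Mediator subunit gene (0.144), were nearest to myrf-2. Nearest to pan-1 were let-630 (0.0863) and C01G10.7 (0.0918).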

How the data were processed

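ChIP-seq of eGFP-tagged CEH-16 was measured in 2 replicates of L2 larvae. Per the file headers, the authors made a relaxed interval list for each replicate and for the pooled alignments, against a control alignment, as input for IDR. The optimal IDR list was derived from the data of both replicates. Its positions and signals can differ from those of the pooled list. The myrf-1 intron 1 peak is II:10501712-10502007 in the IDR list and II:10501672-10501967 in the pooled list. The deposited signal of an interval is the enrichment value of the authors' peak caller, and the lists also hold the deposited −log10 of a q-value and a summit offset. Neither aligner, caller nor IDR cutoff was given in the sources used here. No file gives read counts, so depth is unknown.

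The lists on ce11 were used: 1358 IDR peaks, 30000 pooled intervals, 28214 in replicate 1 and 30000 in replicate 2. Lists on ce10 were not used. Positions are 1-based on ce11 and genes are those of Ensembl release 115 (WBcel235). The microRNA lin-4 is named cel-lin-4 there. Bases came from the RefSeq genome of WBcel235, whose chromosomes are those of the annotation. A replicate's value at a peak is its strongest interval overlapping by at least 1 bp. No signal was tested, since the choice of genes used the intervals. Intervals on shares are 95% Wilson intervals and cover counting error only. Window and motif counts were tested on simulated data. Alternatives changed the window, the list, the overlap rule and the motif flank. Genes, lists and motifs were chosen with earlier results of these data known. Named genes are the 3 genes, every list gene, genes that overlap or neighbour their windows, and the 2 genes nearest in signal to each. Tools were Python 3.11.15, pandas 2.3.3, NumPy 2.4.6, SciPy 1.17.1 and Matplotlib 3.10.9.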

Additional observations from a re-analysis of the deposited data

How the results depend on the processing

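All 3 genes had at least 1 summit with a window of 10 kb, with any overlap, with the top pooled intervals and with the top intervals of either replicate alone, though in replicate 2 alone that of pan-1 was not its IDR peak. With 2 kb beyond either end, pan-1 had 0. Among the IDR peaks at or above the median signal, myrf-1 had 1 and pan-1 had 0. Where a gene had to own the nearest 5′ end within 1000 bp, a rule added after the data were seen, myrf-1 had 2 and pan-1 had 0. From 1 replicate alone, myrf-1 had 2 to 3 peaks (2 without replicate 2), myrf-2 1 to 2 (2 without replicate 1) and pan-1 1. Without replicate 1 the second myrf-2 peak is the interval beside nucb-1, and the pan-1 one is that beside idhg-1, since the pan-1 IDR peak ranks 1640 in replicate 2. The share of all protein-coding genes with a summit was 14.4%. It was 8.63% with 2 kb, 22.6% with 10 kb, 7.62% with the stronger IDR peaks, 3.53% by the nearest 5′ end, and 14.2 to 15.2% from 1 replicate. The share of IDR windows with a homeodomain core was 7.07% within 50 bp and 22.8% in whole intervals. These shares moved with the length searched or the number of peaks used. The replicate ratios at the strongest peaks kept their direction. No paired analysis was possible because there is 1 group and no test. Read depth is unknown, and 2 replicates give no firm error for any signal.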
